A study of Mus musculus with 10 samples.

Results

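Tumor necrosis factor (TNF), the lymphotoxins and their receptors were examined through 10 genes, taken by symbol from the 56691 genes of the deposited table. They are the ligand genes *Tnf*, *Lta*, *Ltb*, *Tnfsf14* and *Tnfsf15*, the receptor genes *Tnfrsf1a*, *Tnfrsf1b*, *Ltbr* and *Tnfrsf25*, and the inhibitor gene *Tnfaip3*. Of the 10, 8 had enough counts to enter the test together with 16545 genes in all, and *Lta* and *Tnfsf14* did not. TNF is secreted mainly by macrophages and T cells and binds the receptors of *Tnfrsf1a*, present on most cells, and of *Tnfrsf1b*, found mostly on immune cells. Bound receptors assemble a complex around the adaptors TRADD and RIPK1 and release the transcription factor NF-κB, whose targets include cytokines, adhesion molecules and the inhibitor encoded by *Tnfaip3*. Lymphotoxin α alone uses the same receptors, whereas lymphotoxin α bound to lymphotoxin β sits on lymphocytes and engages *Ltbr* on stromal and epithelial cells, a signal needed to form lymphoid follicles of the gut. Antibodies to TNF are an established treatment of ulcerative colitis.

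Colon tissue came from male C57/BL6 mice, obtained at 8 weeks of age. All had drunk 3% dextran sulfate sodium (DSS), which injures the colonic epithelium, for 7 days. The day on which colon was taken is not stated in the methods of the study. The methods of the study give no further agent for the DSS group (5 mice, DSS-1 to DSS-5), and the ceAF group (5 mice, ceAF-1 to ceAF-5) was then given chick early amniotic fluid (ceAF) by gavage at 15 mL/kg for 10 days. Mice without DSS and mice given mesalazine were not analysed here, so each value sets ceAF after DSS against DSS alone. Poly(A) RNA was sequenced, with totals of 16275884 to 19901549 counted reads per library in the DSS group and 14676471 to 18811795 in the ceAF group. That libraries are separate mice rests on their numbered titles, so p-values measure the spread between these 10 samples.

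Markers of the colon were present in each library. The 10 epithelial markers summed to between 14431 and 27451 TMM-normalized CPM (counts scaled to library size). Where a gene is called the most abundant of a list, this is by mean FPKM, which also divides by exonic length, over the 10 mice; among epithelial markers it was *Car1*, the carbonic anhydrase of surface colonocytes. Several libraries stood apart from their group in markers of other cells. In DSS-1 the 10 B cell markers summed to 282 CPM, where DSS-2 to DSS-5 had 36.7 to 49.4, and the 8 neutrophil markers to 1778 CPM, where they had 123 to 549. The 12 macrophage and monocyte markers reached 751 CPM in DSS-1 and 267 to 341 in DSS-2 to DSS-5. In DSS-5 the 14 T cell markers summed to 84.5 CPM, whereas DSS-1 to DSS-4 had 184 to 211. ceAF-1 was the lowest of all mice in macrophage and monocyte markers (106 CPM) and in fibroblast markers (175 CPM).

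Between the groups, T cell markers differed most uniformly. All 14 were lower in the ceAF group at an unadjusted p under 0.05, as were 3.67% of all genes tested, and 0 passed after adjustment. Their median log2 fold change was −1.24, and 12 of 14 were lower at that threshold without DSS-1. The list was written with earlier results known and holds *Cd3d*, *Cd3e*, *Cd3g*, *Cd8a* and *Cd8b1*, which the study named among its differing genes from these data. The summed level of the 14 averaged 175 ± 51.4 CPM with DSS alone and 78.5 ± 19.8 CPM with ceAF (SD, 5 mice each), and the most abundant by FPKM was *Trbc2*, a constant segment of the T cell receptor β chain. Of 6 tested neutrophil markers 5 were lower at that threshold with a median of −3.96, and 1 was without DSS-1, with a median of −1.52. The most abundant gene of that list by FPKM, *Ly6g*, averaged 227 CPM with DSS alone and 143 with ceAF, while *Mpo* was at 0 in 7 mice and *Ngp* in 4. *Ly6g* made up 482 of the 549 CPM of DSS-5 but 229 of the 1778 CPM of DSS-1, and outside DSS-1 and DSS-3 the neutrophil sum was mostly this gene. By mean log2 level of the tested markers, DSS-5 (0.64) was below DSS-3 (1.99). Of 12 macrophage and monocyte markers 3 were lower (median −0.55), and 0 were without DSS-1 (median −0.31), DSS-2, DSS-3, ceAF-1, ceAF-4 or ceAF-5, with *Lyz2* the most abundant by FPKM. The 10 B cell markers, of which *Cd79a* had the highest FPKM, had a median of −0.60, which became 0.57 without DSS-1, and 0 of 10 passed in either case.
The remaining lists held fewer such genes. Among fibroblast markers, with *Col3a1* highest in FPKM, 2 of 8 were lower at an unadjusted p under 0.05 (median −0.42), and 1 of 8 without DSS-1 (median −0.18). The 2 were *Thy1* (log2 fold change −1.08) and *Pdpn* (−1.11). The collagen genes *Col1a1*, *Col1a2* and *Col3a1* had −0.051, −0.21 and −0.021, and *Pdgfra*, *Dcn* and *Lum* had −0.46, −0.37 and −0.91. Which cells the *Thy1* RNA came from was not tested. Among plasma cell markers, with *Jchain* highest in FPKM, 1 of 6 was lower (median −0.45), also without DSS-1 (median −0.28). In epithelial markers 0 of 10 differed, with a median of 0.032. None passed among endothelial cells (median −0.39), dendritic cells (−0.53), smooth muscle (−0.19), enteric neurons and glia (−0.14), mast cells (−0.10), NK and group 1 innate lymphoid cells (−0.21), or type 3 innate lymphoid and Th17 cells (0.16). Without DSS-1 none passed in these 7 lists, and the medians in the same order were −0.16, −0.27, −0.096, 0.22, 0.028, −0.20 and 0.72. The medians of enteric neurons and glia and of mast cells thus changed sign, the latter over 3 tested genes in place of 2. With 2 tested genes the mast cell median was also above 0 without DSS-2 (0.033), ceAF-2 (0.0051) or ceAF-5 (0.056). That of NK and group 1 innate lymphoid cells was 0.016 without DSS-3. For type 3 innate lymphoid and Th17 cells it was −0.033 without ceAF-5, over 2 tested genes. Other single mice moved these lists as well, since 3 of 7 endothelial markers were lower without ceAF-4 (median −0.70, against −0.14 without ceAF-1) and 2 of 6 dendritic cell markers without DSS-5 (median −0.74). The dendritic cell median was −0.96 without ceAF-5, and 1 mast cell marker was lower and 1 higher without ceAF-4. In bulk tissue, fewer cells of a type and less RNA per cell cannot be told apart. These marker levels move with several genes described here, and their part in those results was not tested.

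Of the 8 genes of TNF, the lymphotoxins and their receptors that entered the test, *Ltb* alone was lower with ceAF at an unadjusted p under 0.05, and none passed after adjustment. *Tnfsf14*, which the filter removed, was also lower at that threshold when no filter was used, as were 976 genes in all, but not after adjustment. Its counts were 77 in DSS-1 and 1 to 14 in the other mice. For *Tnf*, *Tnfrsf1b* and *Tnfaip3* the SD within the DSS group exceeded the difference between the group means, and *Ltbr* hardly varied. Of all 16545 genes tested, 0 (0%) had both an adjusted p under 0.05 and a log2 fold change of 1 or more in either direction (edgeR quasi-likelihood, Benjamini-Hochberg), and DESeq2's Wald test called 28. At an unadjusted p under 0.05, ceAF went with lower levels of 607 genes (3.67%) and higher levels of 539 (3.26%). Leaving out DSS-1 gave 321 lower genes and leaving out ceAF-1 gave 997, and higher genes became 875 without ceAF-1 and 847 without DSS-5. Among the 8 tested members, 1 was lower at that threshold (*Ltb*) and 0 were higher. All 8 had a fitted log2 fold change below 0, as did 48.6% of all genes tested, although *Ltbr*, *Tnfsf15* and *Tnfrsf25* changed sign when single mice were left out. In 0 of the 10 members did the groups separate completely, whereas among all genes tested the ceAF mice were without overlap lower in 0.465% and higher in 0.774%.

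**Figure D1:**
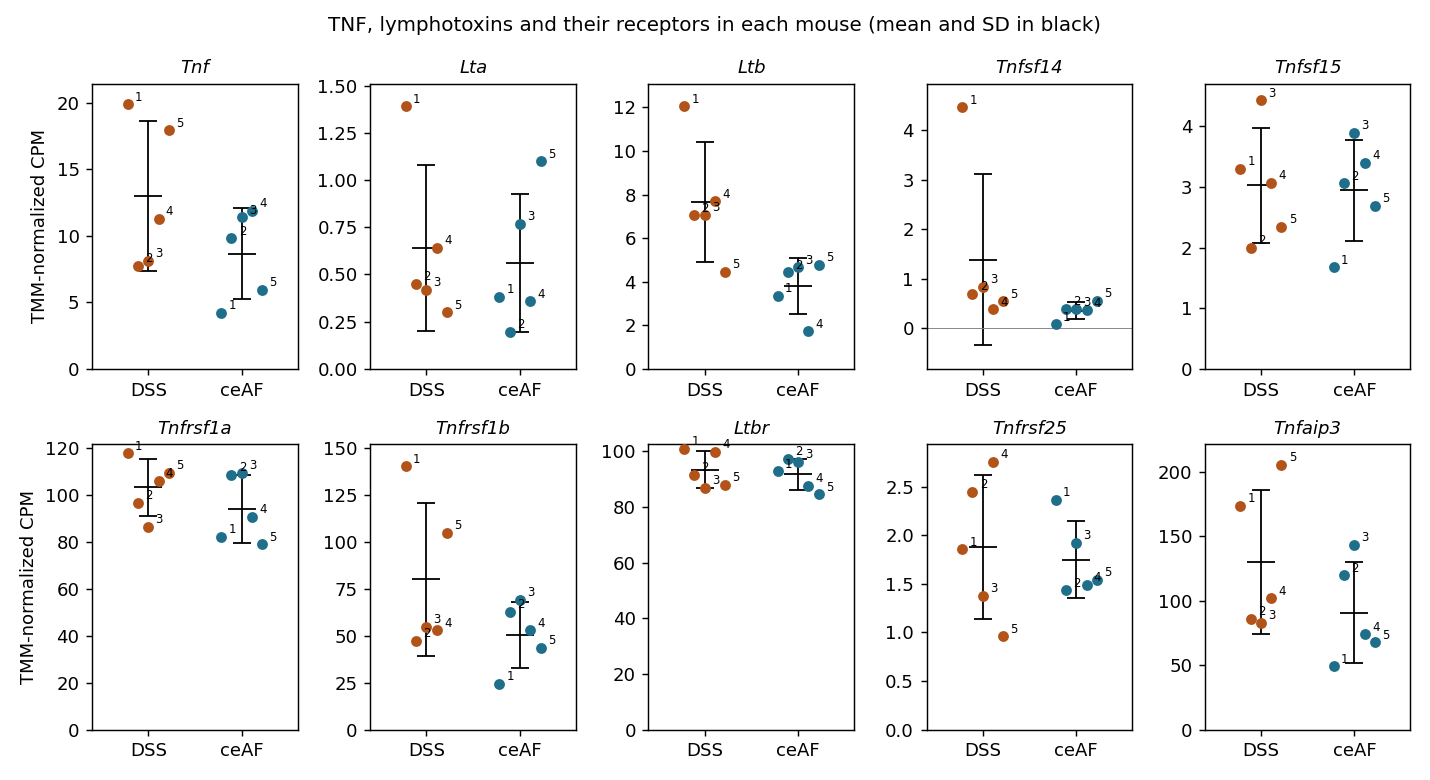
TMM-normalized CPM of the 10 genes in each mouse, with replicate numbers beside the points and the group mean with its SD in black (5 mice per group). DSS-1 is the highest mouse in *Tnf*, *Lta*, *Ltb*, *Tnfsf14*, *Tnfrsf1a*, *Tnfrsf1b* and *Ltbr*, and in *Ltb* the ceAF mice lie between 1.73 and 4.78 CPM.

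*Ltb* encodes lymphotoxin β, the membrane-bound chain that holds lymphotoxin α on the lymphocyte surface. It reached 12.1, 7.05, 7.06, 7.69 and 4.44 CPM in DSS-1 to DSS-5, and 3.36, 4.43, 4.66, 1.73 and 4.78 CPM in ceAF-1 to ceAF-5. DSS-1 to DSS-4 lay above every ceAF mouse, and DSS-5 lay within the ceAF range. Mean levels were 7.66 ± 2.76 CPM with DSS alone and 3.79 ± 1.28 CPM with ceAF, 50.5% lower. edgeR estimated a log2 fold change of −1.01 (standard error 0.319), for which p was 0.00882 before and 0.656 after Benjamini-Hochberg adjustment. An exact two-sided permutation test of the mean log2 CPM over all assignments of the mice gave p = 0.0238, where the smallest p that 5 against 5 mice allow is 0.00794. Without DSS-1 the log2 fold change was −0.78 and without DSS-5 it was −1.14.
Because lymphocytes carry lymphotoxin β, the *Ltb* level was also taken relative to the mean log2 CPM of the T cell markers in the same mouse. That difference averaged −0.49 ± 0.42 log2 units with DSS alone and −0.28 ± 0.50 with ceAF. The groups differed by 0.20, in the direction of more *Ltb* per marker level under ceAF (exact two-sided permutation p = 0.532, 0.886 after Benjamini-Hochberg adjustment over the 5 such differences). With single mice left out this difference ranged from 0.0060 to 0.34. DSS-5 and the ceAF mice were below DSS-1 to DSS-4 in both *Ltb* and T cell markers. Within the ceAF group the 2 did not always go together. ceAF-5 had the highest *Ltb* of its group but the second lowest mean log2 level of T cell markers of all mice. Its *Ltb* relative to these markers was 0.51 log2 units, where the other mice had −0.81 to −0.015. Over the 10 mice, the log2 CPM of *Ltb* and the mean level of T cell markers had a Pearson r of 0.844 and a Spearman rho of 0.782, and r was 0.657 within groups after group means were removed. Leaving out the 2 mice farthest from the median of *Ltb* gave an r of 0.875. This was not particular to T cells, since the dendritic cell markers had an r of 0.806 with *Ltb* (rho 0.891, within groups 0.782, without 2 mice 0.808). For macrophage and monocyte markers r was 0.748 (rho 0.794, within groups 0.616, without 2 mice 0.724), and for B cell markers it was 0.677 (rho 0.467, within groups 0.748, without 2 mice 0.240).

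**Figure D2:**
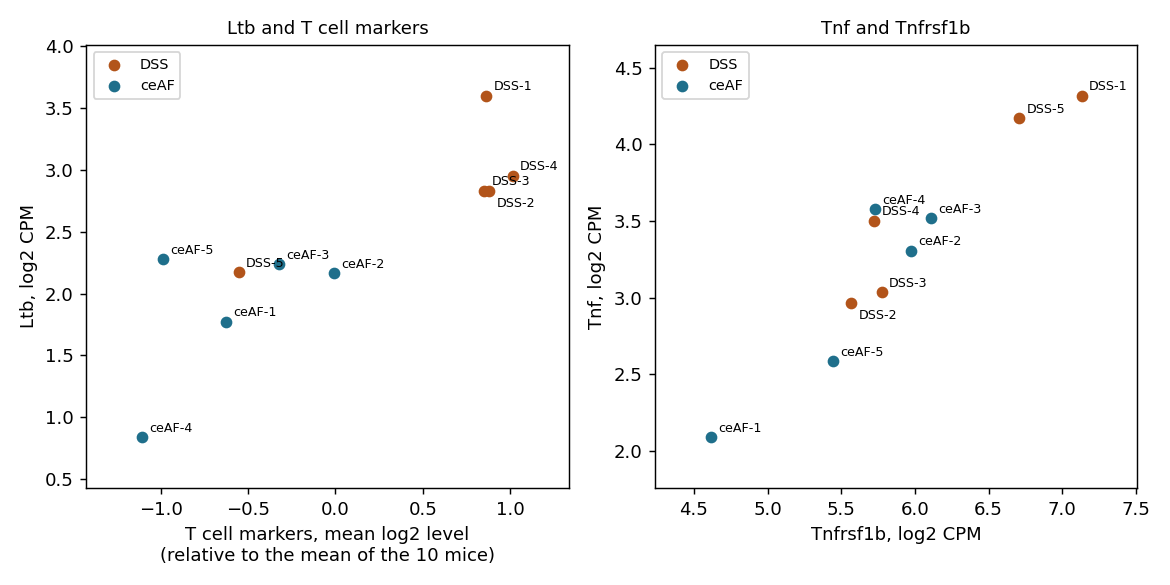
Left, log2 CPM of *Ltb* against the mean log2 level of 14 T cell markers relative to the mean of the 10 mice, and right, log2 CPM of *Tnf* against that of *Tnfrsf1b*; each point is 1 mouse. DSS-5 lies among the ceAF mice on the left and beside DSS-1 at the upper end on the right.

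*Tnf* itself was measured at 19.9, 7.75, 8.14, 11.3 and 17.9 CPM in DSS-1 to DSS-5 and at 4.20, 9.83, 11.4, 11.9 and 5.94 CPM in ceAF-1 to ceAF-5. DSS-1 and DSS-5 exceeded every ceAF mouse, ceAF-1 and ceAF-5 were below every DSS mouse, and the other 6 mice overlapped. The group means were 13.0 ± 5.61 and 8.65 ± 3.41 CPM. The log2 fold change was −0.58 (standard error 0.352), with 0.759 as its Benjamini-Hochberg adjusted p in edgeR and an exact two-sided permutation p of 0.190. The difference did not exceed the spread between mice, and without DSS-1 the log2 fold change was −0.38.
*Tnf* did not follow the T cell markers, with a Pearson r of 0.230 over the 10 mice (Spearman rho 0.103), −0.213 within groups and −0.160 without the 2 mice farthest from the median of *Tnf*. It was closer to markers of endothelial cells (r 0.829, rho 0.818, within groups 0.786, without 2 mice 0.539), fibroblasts (0.816, 0.564, 0.767 and 0.384) and neutrophils (0.748, 0.733, 0.668 and 0.275). DSS-5, the DSS mouse lowest in T cell markers, had the second highest *Tnf*, and *Tnf* relative to these markers was 1.97 log2 units in DSS-5 and between −0.67 and 0.70 in DSS-1 to DSS-4. The ceAF group was 0.64 higher than the DSS group in *Tnf* relative to T cell markers (exact two-sided permutation p = 0.294, adjusted 0.734), and 1.07 higher without DSS-5 (exact p = 0.0476). Relative to macrophage and monocyte markers the difference was 0.040 (exact p = 0.889, adjusted 0.889), with means of −0.53 ± 0.68 (DSS) and −0.49 ± 0.44 (ceAF).

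*Tnfsf14* encodes LIGHT, a ligand of *Ltbr* and of *Tnfrsf14* that is made by activated T cells and other leukocytes. Its counts were 77, 14, 14, 6 and 9 in DSS-1 to DSS-5 and 1, 6, 7, 6 and 10 in ceAF-1 to ceAF-5, too few to pass the filter. DSS-1 held 4.46 CPM, DSS-2 to DSS-5 between 0.384 and 0.838, and the ceAF mice between 0.0763 and 0.550. With no filter on low counts edgeR estimated a log2 fold change of −1.90 (standard error 0.673), for which p was 0.0132 before and 0.690 after Benjamini-Hochberg adjustment. The mean log2 CPM was 1.38 log2 units lower in the ceAF group (log2 difference −1.38, exact two-sided permutation p = 0.0476), and without DSS-1 the difference was −0.82 (exact p = 0.0952). The exact p was also above 0.05 without DSS-2, DSS-3, ceAF-1, ceAF-2, ceAF-3 or ceAF-4, reaching 0.0635 to 0.0952. Over the 10 mice, *Tnfsf14* varied with markers of neutrophils (r 0.923, rho 0.564, within groups 0.884) and fibroblasts (0.881, 0.479 and 0.848). For macrophages and monocytes these values were 0.856, 0.697 and 0.792. Without the 2 mice farthest from the median of *Tnfsf14*, r was 0.485, −0.050 and 0.308 for the 3 lists.
*Lta*, the gene of lymphotoxin α, was likewise low. Its counts were 24, 9, 7, 10 and 5 in DSS-1 to DSS-5 and 5, 3, 14, 6 and 20 in ceAF-1 to ceAF-5, with DSS-1 and ceAF-5 highest. The same mice were the highest of their groups in summed B cell markers, at 282 and 139 CPM. The difference of mean log2 CPM was −0.20 (exact two-sided permutation p = 0.714), and 0.11 without DSS-1. Relative to T cell markers, *Lta* was 1.03 log2 units higher in the ceAF group (exact p = 0.127, adjusted 0.635) and *Tnfsf14* differed by −0.16 (exact p = 0.889, adjusted 0.889). The difference for *Lta* was 1.45 without ceAF-2 (exact p = 0.0317), and that for *Tnfsf14* was 0.34 without DSS-1. With counts this low, neither difference was resolved.
*Tnfsf15* encodes TL1A, the ligand of the receptor of *Tnfrsf25*, and variants near its human counterpart are associated with inflammatory bowel disease. It averaged 3.03 ± 0.945 CPM with DSS alone and 2.95 ± 0.835 with ceAF, and the mice of the groups overlapped. The log2 fold change was −0.035 (standard error 0.281), with an adjusted p of 0.989 by edgeR and Benjamini-Hochberg. Without DSS-3 the log2 fold change was 0.16 and without ceAF-1 it was 0.11.

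Among the receptors, *Tnfrsf1b* varied most between mice. It had 140, 47.4, 54.7, 52.8 and 105 CPM in DSS-1 to DSS-5 and 24.4, 62.8, 69.0, 52.9 and 43.5 CPM in ceAF-1 to ceAF-5. DSS-1 and DSS-5 exceeded every ceAF mouse, ceAF-1 and ceAF-5 lay below every DSS mouse, and the other 6 overlapped. edgeR estimated a log2 fold change of −0.66 (standard error 0.352), for which p was 0.0875 before and 0.742 after Benjamini-Hochberg adjustment. It was −0.36 without DSS-1, and without DSS-2 it was −0.79, where the unadjusted p in edgeR's test was 0.0496. *Tnfrsf1b* varied with markers of fibroblasts (r 0.844, rho 0.564, within groups 0.801) and neutrophils (r 0.822, rho 0.673, within groups 0.766), and without the 2 mice farthest from its median r was 0.129 and 0.271.
*Tnfrsf1a*, the receptor that carries a death domain and signals in nearly all cells, ranged from 86.3 to 118 CPM in DSS mice and from 78.8 to 109 CPM in ceAF mice. Its log2 fold change was −0.14 (standard error 0.126; adjusted p 0.869 by edgeR and Benjamini-Hochberg). *Ltbr*, which activates the alternative NF-κB pathway through the kinase of *Map3k14*, varied least, with 86.8 to 101 CPM in the DSS mice and 84.4 to 97.2 in the ceAF mice. Its highest mouse was 1.19 times its lowest, against 5.74 times for *Tnfrsf1b*. The log2 fold change of *Ltbr* was −0.027 (standard error 0.0839), and 2 standard errors to either side span −0.19 to 0.14. So the receptor of lymphotoxin β differed little between groups in these mice, whereas *Ltb* was 50.5% lower in mean CPM. *Tnfrsf25*, the death receptor bound by TL1A, had 0.960 to 2.75 CPM in the DSS mice and 1.43 to 2.37 in the ceAF mice, for a log2 fold change of −0.11 (standard error 0.303).

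*Tnfaip3* encodes A20, a ubiquitin-editing enzyme that shuts off NF-κB signaling and is itself a target of NF-κB. Its levels were 174, 86.1, 83.1, 102 and 206 CPM in DSS-1 to DSS-5 and 49.2, 120, 144, 73.9 and 67.7 CPM in ceAF-1 to ceAF-5. DSS-5 and DSS-1 were the highest, while ceAF-3 and ceAF-2 exceeded the other DSS mice. The log2 fold change was −0.52 (standard error 0.341), with 0.799 as its Benjamini-Hochberg adjusted p in edgeR and an exact two-sided permutation p of 0.214.

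To compare levels between genes, the deposited FPKM, which divides by exonic length, was averaged over the 10 mice. *Ltbr* (39.2 ± 2.42 FPKM, SD over 10 mice) and *Tnfrsf1a* (38.0 ± 5.48) were the highest, and they did not differ beyond their spread, *Ltbr* being the higher in 6 of 10 mice. *Tnfrsf1b* (17.2 ± 9.20) and *Tnfaip3* (15.3 ± 7.12) followed, with *Tnfrsf1b* the higher in 5 of 10 mice. *Tnf* was next at 6.65 ± 3.15 FPKM and exceeded *Ltb* (3.79 ± 1.98) in all 10 mice. The other 4 genes were below 1 FPKM on average, from *Tnfrsf25* (0.790 ± 0.222) through *Tnfsf15* (0.515 ± 0.153) and *Tnfsf14* (0.483 ± 0.722) to *Lta* (0.439 ± 0.293). The last 2 were not ordered, since *Tnfsf14* was the higher in 5 of 10 mice and its median of 0.255 FPKM was below the 0.320 of *Lta*. *Tnfsf14* exceeded 1 FPKM only in DSS-1, at 2.51. Receptors for TNF and lymphotoxin β were thus more abundant per length than the ligands in this tissue.

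Across the mice, several members varied together, within as well as between the groups. The log2 CPM of *Tnf* and *Tnfrsf1b* had a Pearson r of 0.942 over the 10 mice (Spearman rho 0.867), r was 0.927 within groups, and it was 0.861 without the 2 mice farthest from the median of *Tnf*. *Tnfaip3* varied with both, with r of 0.929 for *Tnfrsf1b* (rho 0.891, within groups 0.912, without 2 mice 0.946) and 0.893 for *Tnf* (rho 0.782, within groups 0.868, without 2 mice 0.797). *Tnfrsf1a* varied with *Tnfaip3* at r of 0.892 (rho 0.939, within groups 0.873, without 2 mice 0.847). *Ltb* did not belong to this group, since its r was 0.274 with *Tnf* (rho 0.152), −0.080 within groups and −0.309 without 2 mice. Between *Tnf* and *Tnfsf14* r was 0.643 (rho 0.152, within groups 0.524), and it became −0.425 without the 2 farthest mice. These values describe 45 pairs in the same 10 libraries and were given no p.
Among all genes tested, those most like *Tnf* over the mice included *Lrrc32* (r 0.965, rho 1.0) and *Slc12a4* (0.963, rho 0.903). *Lrrc32* encodes GARP, which presents latent TGF-β on regulatory T cells and platelets. For *Ltb* they were *Tbc1d10c* (r 0.984), *Coro1a* (0.974) and *Rac2* (0.967), which are expressed in leukocytes. Those 3 had log2 fold changes of −1.29, −1.25 and −1.41 between the groups. *Lta* was most like *Trim7* (0.879) and the B cell transcription factor genes *Ebf1* (0.878) and *Spib* (0.875), for which r was 0.724, 0.683 and 0.651 without the 2 mice farthest from its median. *Tnfsf14* was most like *C5ar1* (0.983), the complement receptor of neutrophils and macrophages, *Msn* (0.972) and *Fkbp10* (0.971), but without the 2 mice farthest from the median of *Tnfsf14* r was 0.781, 0.574 and 0.707. *Tnfsf15* was most like *Gm44199* (0.871), *Gm9791* (0.841) and *Sox17* (0.840), the last an endothelial transcription factor gene, and without 2 mice r was 0.625, 0.516 and 0.643. All these genes were picked for the highest r in a search through the 16545 tested genes over 10 mice. How high r reaches by chance in such a search was not tested.

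In position, *Ltb*, *Tnf* and *Lta* are neighbors on chromosome 17, within the major histocompatibility complex. In the coordinates of the deposited table, whose build is not named, *Ltb* (ENSMUSG00000024399) spans 35413415 to 35415296 on the forward strand. *Tnf* (ENSMUSG00000024401) spans 35418357 to 35420983 and *Lta* (ENSMUSG00000024402) 35422141 to 35424327, both on the reverse strand. *Tnf* lies 3061 bases from *Ltb* and 1158 bases from *Lta*. The differences of mean log2 CPM between the groups were −1.02 for *Ltb*, −0.58 for *Tnf* and −0.20 for *Lta*, and whether the 3 genes differed from each other was not tested. The microRNA genes *Mir6973a* and *Mir6974* lie within *Ltb* and *Lta*, with a mean of 0.6 and 0 counts.
The other members lie on chromosome 6 (*Ltbr*, ENSMUSG00000030339, and *Tnfrsf1a*, ENSMUSG00000030341), chromosome 4 (*Tnfrsf1b*, ENSMUSG00000028599, *Tnfsf15*, ENSMUSG00000050395, and *Tnfrsf25*, ENSMUSG00000024793), chromosome 10 (*Tnfaip3*, ENSMUSG00000019850) and elsewhere on chromosome 17 (*Tnfsf14*, ENSMUSG00000005824). Other genes of the family lie near several of them. *Ltbr* and *Tnfrsf1a* are 35477 bases apart on chromosome 6, and *Cd27*, a costimulatory receptor of T cells, is 69561 bases from *Ltbr*. *Cd27* had 4.06 CPM under DSS alone and 1.54 under ceAF, a log2 fold change of −1.40 (unadjusted p 0.00208 in edgeR's quasi-likelihood test). On chromosome 17, *Tnfsf9*, which encodes the 4-1BB ligand, lies 81735 bases from *Tnfsf14* and had a log2 fold change of −1.42 (unadjusted p 0.0126), whereas *Cd70*, 39715 bases away, was too low to be tested. *Tnfrsf8*, 20267 bases from *Tnfrsf1b*, and *Tnfsf8*, 86195 bases from *Tnfsf15*, had log2 fold changes of −0.34 (standard error 0.851) and −0.56 (standard error 0.623).

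**Figure D3:**
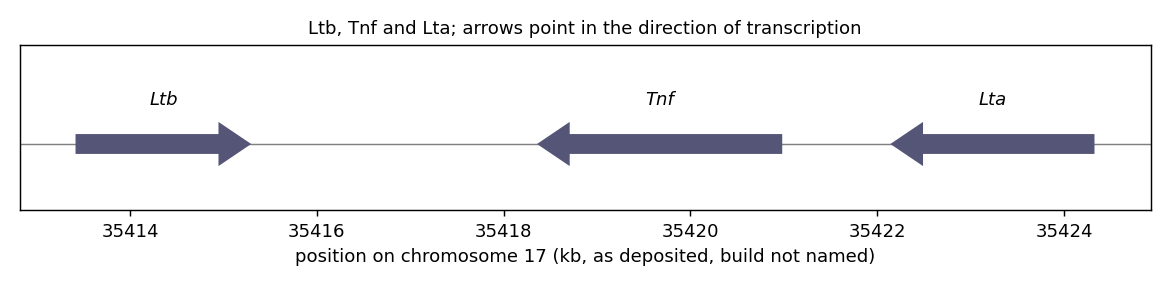
Positions of *Ltb*, *Tnf* and *Lta* on chromosome 17 in kb, as deposited, with arrows in the direction of transcription. *Tnf* and *Lta* point the same way, and *Ltb* points towards them.

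Pathway genes around the members were described by counts from the same fit, beside 607 lower and 539 higher of 16545 genes in all and a median log2 fold change over all genes of 0.0076. In the 7 lists together 15 genes had an unadjusted p under 0.05, and without DSS-1 this was 3. Of the 9 tested ligands of the TNF superfamily outside the members, 2 were lower and 0 higher at that threshold (median −0.48, and −0.0088 without DSS-1). They were *Tnfsf9* and *Fasl*, the ligand of the death receptor Fas (log2 fold change −0.94, standard error 0.426). Only 1 ligand was lower without DSS-1, DSS-2, DSS-3, DSS-4, ceAF-1, ceAF-3, ceAF-4 or ceAF-5, and 1 was higher without DSS-5 or ceAF-1. *Tnfsf13*, a ligand for B and plasma cells, had 0.38 and *Tnfsf13b*, the survival factor BAFF, −0.34, and neither passed. The most abundant by FPKM was *Tnfsf10*, the gene of TRAIL, with 67.5 ± 29.6 CPM under DSS alone and 77.6 ± 53.9 under ceAF.
Of 21 tested receptors of the superfamily, 2 were lower and 1 was higher (median −0.24, and −0.047 without DSS-1). *Cd27* and *Relt* were lower, *Relt* with a log2 fold change of −1.36 (standard error 0.404). *Tnfrsf14*, which binds LIGHT and lymphotoxin α, was higher, with 8.14 ± 0.998 CPM under DSS alone and 10.7 ± 2.40 under ceAF (log2 fold change 0.40, standard error 0.171), but 0 receptors were higher without DSS-1, DSS-4, ceAF-1 or ceAF-3. *Tnfrsf9*, the costimulatory receptor 4-1BB, had −0.95 (standard error 0.468) and did not pass, and the most abundant by FPKM, *Tnfrsf21*, had −0.096.
In the signaling complex, 1 of 27 tested genes was lower and 0 were higher (median −0.052, and 0.0049 without ceAF-5). It was *Traf1*, an NF-κB-inducible adaptor, with a log2 fold change of −0.77 (standard error 0.292, unadjusted p 0.0237 in edgeR's quasi-likelihood test), and 0 of 27 passed without DSS-1 or without ceAF-4. *Map3k14*, *Ikbkg* and *Traf2* had −0.41, 0.16 and −0.17 and did not pass, and *Casp8*, the most abundant by FPKM, had 0.18. Of the 5 NF-κB subunits, *Rela* was lower, with 48.0 ± 4.90 CPM under DSS alone and 38.4 ± 5.26 under ceAF (log2 fold change −0.32, standard error 0.116), and its mean FPKM of 14.1 was the highest of the 5, next to 14.0 for *Relb*. Without DSS-1 0 of the 5 passed. *Nfkb2*, *Relb* and *Nfkb1* had −0.21, −0.11 and −0.072 and did not pass. Among 17 inhibitors other than *Tnfaip3*, 0 passed in either direction (median −0.015). Without ceAF-3 1 was lower, without ceAF-4 1 was higher, and without ceAF-1 the median was −0.0875. *Zfp36*, which destabilizes the *Tnf* transcript, had −0.39, *Nfkbie* −0.58, *Otulin* −0.18 and *Nfkbia* −0.42, and *Tax1bp1*, the most abundant by FPKM, 0.055.

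Of 21 tested targets of TNF signaling, 5 were lower and 0 higher at an unadjusted p under 0.05, the median being −0.84 log2 units, and without DSS-1 0 were lower and the median was −0.42. The neutrophil chemokine gene *Cxcl2* averaged 111 ± 218 CPM under DSS alone and 4.92 ± 3.92 under ceAF, and *Il1b* 140 ± 256 and 10.1 ± 8.37. Both DSS means rested on DSS-1, with 501 CPM of *Cxcl2* and 597 CPM of *Il1b*, and without it they were 13.9 ± 13.7 and 26.0 ± 23.6 CPM (log2 fold changes −1.49 and −1.35). *Ptgs2*, the inducible cyclooxygenase gene, and *Tnfaip2* had log2 fold changes of −2.34 (standard error 0.922) and −1.74 (standard error 0.645), and without DSS-1 these were −0.56 and −0.59. *Irf1*, the most abundant of the list by FPKM, had −0.065. Summed over the list, DSS-1 had 2296 CPM, the other DSS mice had 592 to 727 and the ceAF mice had 439 to 704.
Targets of lymphotoxin β receptor signaling included 3 of 8 that were lower and 0 that were higher (median −0.44). Without DSS-1 0 were lower (median −0.47), and 1 was lower without DSS-3, DSS-5 or ceAF-5. *Ccl21a*, a chemokine gene of lymphatic vessels and T cell zones, had a log2 fold change of −1.55 (standard error 0.546). *Cxcl12* had −0.54 (standard error 0.231) and *Il33* −1.27 (standard error 0.562). *Madcam1*, the mucosal vascular addressin, had 2.86 ± 1.39 CPM under DSS alone and 1.40 ± 0.836 under ceAF and did not pass. *Cxcl13*, the most abundant by FPKM, attracts B cells to follicles and had 33.9 ± 15.6 and 31.1 ± 25.4 CPM.

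The promoters of the members were searched for the NF-κB consensus, the letters to which subunits such as that of *Rela* bind. The sequences are those of RefSeq on the build GRCm38.p6, so their positions differ from those printed above, and cover the 250 bases before each start. All 10 members had a window, with 12 windows in all. On either strand the consensus was found in 3 of the 12 windows, which belong to *Ltb*, *Tnfaip3* and *Tnfrsf25*. Among the 32851 windows of all genes it was found in 7.25%. The search was chosen after the values were seen. The windows of *Ltb* (chr17:35194257-35194506, forward strand), *Tnfaip3* (chr10:19015411-19015660, reverse strand) and *Tnf* (chr17:35202008-35202257, reverse strand) are shown for the gene with the lowest p, the inhibitor and the ligand, 5′ to 3′ with the matched letters in capitals.
Ltb: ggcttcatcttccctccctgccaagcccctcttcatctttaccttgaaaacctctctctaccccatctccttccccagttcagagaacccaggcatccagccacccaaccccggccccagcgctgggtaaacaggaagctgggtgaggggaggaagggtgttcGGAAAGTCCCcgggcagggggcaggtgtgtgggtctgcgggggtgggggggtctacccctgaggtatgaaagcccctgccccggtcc
Tnfaip3: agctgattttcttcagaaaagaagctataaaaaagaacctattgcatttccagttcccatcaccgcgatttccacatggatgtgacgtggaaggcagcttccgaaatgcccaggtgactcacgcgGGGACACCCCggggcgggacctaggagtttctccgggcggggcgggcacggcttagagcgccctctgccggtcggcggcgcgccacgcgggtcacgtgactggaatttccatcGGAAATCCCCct
Tnf: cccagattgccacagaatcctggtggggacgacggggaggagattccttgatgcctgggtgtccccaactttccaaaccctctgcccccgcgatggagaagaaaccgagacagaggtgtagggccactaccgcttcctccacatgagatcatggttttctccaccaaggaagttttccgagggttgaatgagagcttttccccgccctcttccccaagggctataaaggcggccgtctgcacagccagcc
In *Ltb* the match begins 87 bases before the start, and in *Tnfaip3* the matches begin 125 and 12 bases before it, the first of them on both strands. The window of *Tnf* holds no such letters. *Tnfaip3* has another window (chr10:19011964-19012213, reverse strand), which is not shown and holds none either. A match describes the letters of the window and was not tested as a binding site.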

How the data were processed

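RNA sequencing of colon from 5 DSS and 5 ceAF mice was analysed from the table deposited by the authors. Per the labels, poly(A) RNA was made into libraries with random primers, and the submitters' processing notes list cutadapt 1.9.1 and HISAT2 2.2.1. The counting program, strand setting, annotation and genome build are not given in the sources used here. The authors deposited raw counts per gene, and FPKM values that equal the count divided by exonic length and by the library's counted reads, within 0.006 for 100% of values.

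Genes were kept by filterByExpr (minimum count 10), scaled by TMM and tested with edgeR 4.0.16 in R 4.3.3 (quasi-likelihood, two-sided, Benjamini-Hochberg over all genes kept). Levels per mouse are CPM; their log2 used 1 as prior count. Two-sided exact permutation p-values compared the group means under every assignment of mice to groups (Python 3.11.15). The log2 fold changes were tested on simulated data first. No test was made over the lists, which were described by counts and medians. The members and lists were chosen with earlier results of these data known. In each pathway list the 4 genes with the smallest p and the most abundant gene by mean FPKM were named, in several marker lists the most abundant gene, and also TNF superfamily genes within 200 kb of a member and the 3 genes most like *Tnf*, *Lta*, *Ltb*, *Tnfsf14* and *Tnfsf15*, except that some genes so chosen are not reported here. Alternatives were DESeq2 1.42.0, upper quartile scaling, no filter, the replicate number as a block, limma 3.58.1 on log2 FPKM with pseudocounts of 0.1 and 1, prior counts of 0.25 and 5, and leaving out each mouse. Library pairs within a group differed by 14.7 to 149 in chi-square per gene over 20 pairs, so none was a copy of another. Figures used matplotlib 3.10.9.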

Additional observations from a re-analysis of the deposited data

Results flagged for a closer look

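Dixon's ratio, the distance of the highest or lowest mouse from the next one over the group's range, was taken for the 10 genes, the total count and the summed CPM of each list, with 5 mice per group. It exceeded the critical value of 0.71 in 9 of 64 comparisons, where chance flags about 1 in 20 groups, or 3.2 here, and they are not independent because the lists share mice. Among the 10 genes alone, 1 of 20 passed.

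DSS-1 was far above the other DSS mice in *Tnfsf14*, with 4.46 CPM against at most 0.838 (gap over range 0.889). It was also the highest DSS mouse in the summed CPM of TNF-induced targets (0.921), B cell markers (0.948), macrophage and monocyte markers (0.847), neutrophil markers (0.743) and fibroblast markers (0.931). DSS-5 was the lowest DSS mouse in T cell markers (0.787) and the highest in the summed markers of type 3 innate lymphoid and Th17 cells (0.842). The library of DSS-2 was the deepest of its group, with 19901549 counts (0.908).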

How the results depend on the processing

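The log2 fold changes of *Tnf*, *Ltb*, *Tnfrsf1a*, *Tnfrsf1b* and *Tnfaip3* kept their direction under 16 of 16 alternatives each, and that of *Ltb* lay between −1.14 and −0.78, with adjusted p between 0.196 (DESeq2) and 1.00 in the tests with Benjamini-Hochberg adjustment. Genes called after adjustment numbered 28 with DESeq2 and 0 to 3 when single mice were left out. Genes lower at an unadjusted p under 0.05 numbered 976 without a filter and 321 to 997 with single mice left out, and genes higher 391 to 875. Members under that threshold numbered 2 without a filter, where *Tnfsf14* entered, and 1 to 2 with single mice left out. Pathway genes under it numbered 19 without a filter and 3 to 17 with single mice left out. With the replicate number as a replicate block, 341 genes were lower and 353 higher, and 5 pathway genes passed. Mice with the same number did not deviate together, with correlations of −0.249, −0.136, −0.004, −0.159 and 0.286 over all genes tested, and 1 of 5 correlated best with its own number, so the numbers were not taken as pairs. *Ltb* had an unadjusted p of 0.0267 in the block.

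With single mice left out, the log2 fold change ranged from −0.039 to 0.0065 for *Ltbr*, −0.15 to 0.16 for *Tnfsf15* and −0.26 to 0.067 for *Tnfrsf25*. The difference of mean log2 CPM ranged from −0.47 to 0.11 for *Lta*, −0.052 to 0.0027 for *Ltbr*, −0.17 to 0.15 for *Tnfsf15* and −0.24 to 0.13 for *Tnfrsf25*. Relative to T cell markers it ranged from 0.38 to 1.07 for *Tnf*, 0.65 to 1.45 for *Lta*, 0.0060 to 0.34 for *Ltb* and −0.54 to 0.34 for *Tnfsf14*, and relative to macrophage markers from −0.14 to 0.31 for *Tnf*. With a prior count of 5, the difference relative to T cell markers was 1.04 for *Lta* (exact p = 0.0476) and 0.17 for *Tnfsf14*. For *Tnfsf14* the exact p was 0.0556 under upper quartile scaling. The cause of these changes was not tested. Counts of 1 to 24 limit *Lta* and all mice but DSS-1 in *Tnfsf14*.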
